A study of Mus musculus with 9 samples.

Results

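The 10 genes described here encode the secreted antagonists of Wnt signaling: Dkk1, Dkk2, Dkk3, Sfrp1, Sfrp2, Sfrp4, Sfrp5, Frzb, Wif1, and Sost. They were chosen by name, and 10 of 10 were found by their Ensembl identifiers among the 50686 genes of the deposited count table. RNA-Seq had been done on MC3T3-E1 osteoblasts without treatment (labeled control), on MC3T3-E1 osteoblasts given 10 μM SB216763, an inhibitor of the kinase GSK3, for 14 days, and on mouse pulmonary endothelial cells (ECs), with 3 libraries in each group. MC3T3-E1 is a clonal line of osteoblast precursors from mouse calvaria, so both osteoblast groups came from 1 line. The study asked whether GSK3 inhibition moves osteoblasts toward an endothelial identity, and ECs served as the second cell type for comparison. The labels carry the same SB216763 protocol text on every sample, so groups were read from the titles and treatment entries. Strain and age of the animals that gave the ECs are not given in the sources used here, and nothing in the labels says that the libraries of a group came from separate cultures or animals. The p-values therefore measure only the spread between these libraries, which may be technical.

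Wnt ligands signal by joining a Frizzled receptor to the coreceptors Lrp5 and Lrp6, which stops GSK3 from marking β-catenin for destruction and lets β-catenin act with TCF/LEF factors on target genes. Secreted antagonists act outside the cell, upstream of GSK3. Dkk1, Dkk2, and sclerostin, the product of Sost, bind the coreceptors, whereas the Sfrp proteins, Frzb (also called sFRP3), and Wif1 bind the Wnt ligands themselves. Dkk3 is an atypical Dickkopf that is not a classical Lrp6 ligand. In bone, sclerostin from osteocytes and Dkk1 restrain bone formation, and Lrp5 and Lrp6 are the receptors through which they do so.

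Osteoblasts and ECs held largely different antagonists, with Dkk2 present in both control osteoblasts and ECs. Control osteoblasts contained Dkk3, Sfrp2, and Wif1 at high levels and some Dkk2. After SB216763, Dkk2, Wif1, and Sfrp2 fell by more than 4-fold and Dkk3 rose by less than 4-fold. ECs contained Frzb, Dkk2, and Sost, and only traces of Dkk3, Sfrp2, and Wif1. Libraries held 30990107 to 68946333 counts, so that 3 counts in a single library corresponded to 0.0473 to 0.104 CPM (counts scaled to a common library size, here by the TMM method). Levels between groups are given as CPM, except where CPM per kb of exon is named.

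**Figure D1:**
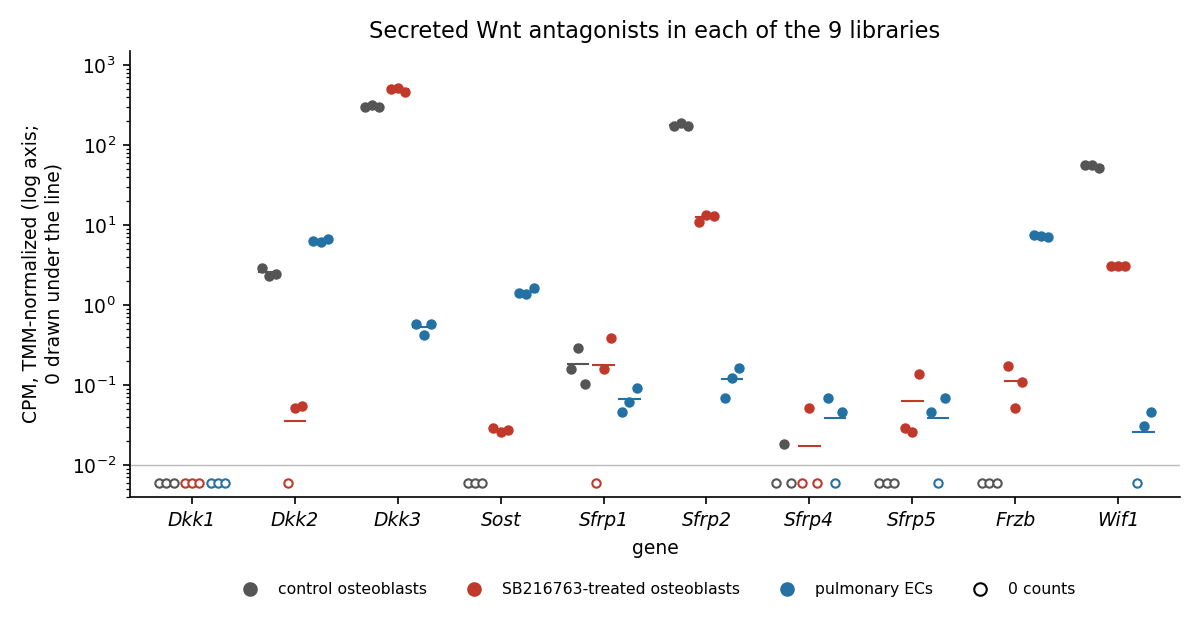
Level of each antagonist in the 9 libraries, as TMM-normalized CPM on a log axis, with 1 point per library, open points below the gray line for 0 counts, and a short bar at the mean of a group where it exceeds 0.01 CPM. Wif1 lies between 51.8 and 56.2 CPM in control osteoblasts, between 3.05 and 3.08 CPM after SB216763, and at or under 0.0463 CPM in ECs, and Frzb and Sost reach their highest levels in ECs.

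A gene was called where it differed by 4-fold or more in either direction, a log2 fold change of 2, with a false discovery rate (FDR, the Benjamini-Hochberg adjusted p over all genes tested) under 0.01, the cutoffs of the study. The test was edgeR's quasi-likelihood F-test, fitted on all libraries together. Of the 10 genes, 6 had enough counts to be tested, namely Dkk2, Dkk3, Sfrp2, Frzb, Wif1, and Sost. Dkk3 passed the filter on low counts in every group, Sfrp2 and Wif1 passed through the 2 osteoblast groups, and Dkk2 through control osteoblasts and ECs. Frzb and Sost passed through ECs alone. Genes that passed only through the group where they were high had to differ, so a difference between osteoblasts and ECs was built into the testing of Sfrp2, Wif1, Frzb, and Sost, and one between treated osteoblasts and the other groups into that of Dkk2. Dkk1, Sfrp1, Sfrp4, and Sfrp5 were not tested.

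Between SB216763-treated and control osteoblasts, 3 antagonists were called lower (Dkk2, Sfrp2, and Wif1), against 5.84% of the 15531 genes tested. Frzb was the 1 antagonist called higher, against 3.81% of all genes. At FDR under 0.01 whatever the size of the change, 2 antagonists were higher (Dkk3 and Frzb), where 32.9% of all genes were, and 3 were lower, where 32.0% of all genes were. The median log2 fold change of the 6 tested antagonists was −1.57, beside 0.01 over all genes tested, and Frzb and Sost, whose fitted sizes rest on a group at 0 counts, lie above it. That median falls between Dkk3 at 0.70 and Sfrp2 at −3.83, and no antagonist lies near it. By size of change, Dkk2 ranked 68th, Wif1 204th, and Sfrp2 260th from the lowest log2 fold change of the 15531.

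**Figure D2:**
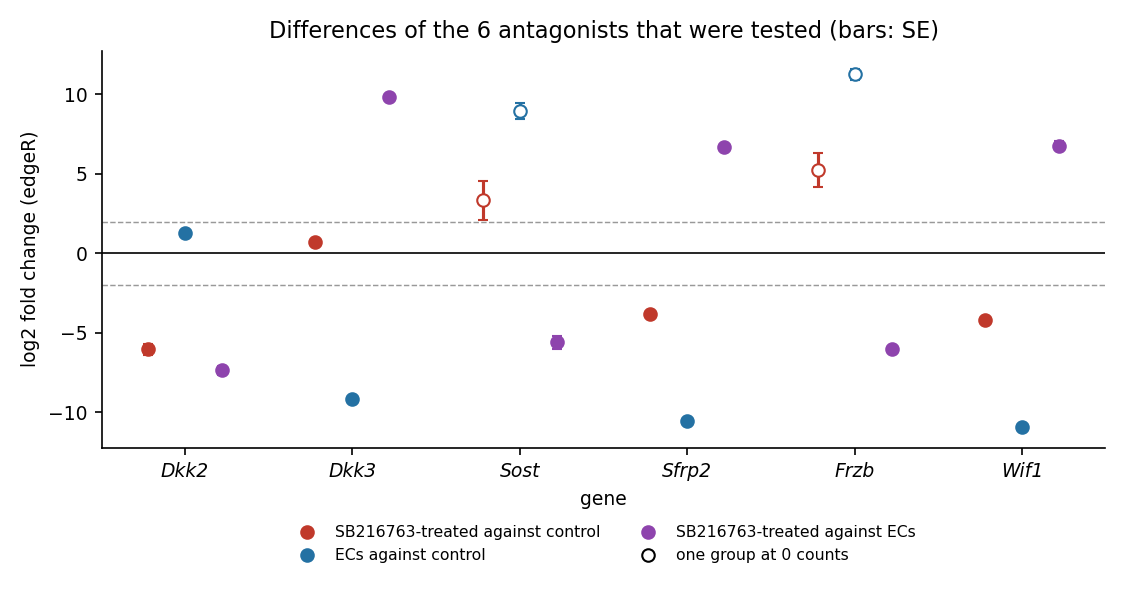
Log2 fold change of each tested antagonist in the 3 comparisons, with bars of 1 standard error from edgeR, dashed lines at the 4-fold cutoff, and open points where 1 group had 0 counts. Sfrp2 and Wif1 lie at −3.83 and −4.16 after SB216763, while the values of Frzb and Sost against control osteoblasts rest on a group with 0 counts and are no measure of size.

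The coreceptor-binding antagonists come first. Dkk1 (chromosome 19, 30545863 to 30549665, minus strand, GRCm38) had 0 counts in every library. A total of 0 allows a level of up to 0.0204 CPM in control osteoblasts, 0.0273 CPM in treated osteoblasts, and 0.0251 CPM in ECs, taking 3 counts over the group as the limit and covering counting error only. Dkk1 was therefore not detectable at this depth in any group.

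Dkk2 (chromosome 3, 132085292 to 132180304, plus strand) is a relative of Dkk1 that also binds Lrp6 and Kremen proteins. It was counted 185, 128, and 70 times in the 3 control libraries, or 2.91, 2.33, and 2.43 CPM (mean 2.56 ± 0.312, SD, n = 3). After SB216763 the counts were 0, 2, and 2, and the mean was 0.0355 ± 0.0308 CPM (n = 3). No treated library came near a control library. The log2 fold change was −6.04 (SE 0.33, FDR = 9.36e-11), and because it rests on 4 counts in the treated group, the ratio of pooled counts is the better guide: 71.5-fold lower, with a 95% counting interval of 27.7 to 264. In ECs Dkk2 was counted 274, 201, and 290 times, at 6.37 ± 0.310 CPM (n = 3). Each EC library was above each control library, and the log2 fold change of 1.30 (SE 0.12, FDR = 5.71e-08) passed the FDR without reaching 4-fold. Dkk2 was the only one of the tested antagonists with more than 1 CPM in both control osteoblasts and ECs, and treated osteoblasts stood below both (log2 fold change against ECs −7.34, SE 0.28, FDR = 3.91e-13).

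Sost (chromosome 11, 101962458 to 101967015, minus strand) encodes sclerostin, which is best known as a product of osteocytes. It had 0 counts in each control library and 1 count in each treated library. Both osteoblast groups lay at or under the limit that 3 counts set, so no fold is given, and the test did not pass (FDR = 0.0339). In ECs Sost was counted 61, 45, and 70 times, or 1.40, 1.37, and 1.62 CPM (1.46 ± 0.138, SD, n = 3). Every EC library was above every osteoblast library. The level in ECs was 72.2-fold higher than in control osteoblasts, where the limit of 3 counts over the group stands in for 0 (FDR = 1.11e-09). The 95% counting interval of the ratio of pooled counts began at 58.1. Against treated osteoblasts, which held 3 counts in all, the ratio of pooled counts was 53.9, with a 95% counting interval of 18.1 to 264 (FDR = 5.97e-09). Osteocyte markers were near 0 in ECs: the 5 genes Dmp1, Mepe, Phex, Fgf23, and Pdpn summed to 0.344 to 0.426 CPM there, with Mepe at 0. In treated osteoblasts, which had 1 Sost count per library, 1 of the 3 osteocyte markers tested was called higher: Dmp1 went from 0.185 CPM in controls to 66.4 CPM. Phex and Pdpn did not pass the test, at 0.744 and 0.532 CPM and at 97.0 and 97.7 CPM, and Fgf23 had 0 counts in both groups.

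Dkk3 (chromosome 7, 112116017 to 112159057, minus strand) had the most counts of the antagonists in both osteoblast groups. Its level was 301, 313, and 297 CPM in the control libraries (304 ± 8.47, SD, n = 3) and 502, 511, and 464 CPM in the treated ones (493 ± 25.3, n = 3). The groups did not overlap, and the log2 fold change of 0.70 (SE 0.05, FDR = 3.40e-09) was the only increase among the antagonists that osteoblasts held at more than 1 CPM. It ranked 3153rd from the highest of the 15531 genes, well inside the 32.9% of genes that rose by the FDR alone. ECs held 25, 14, and 25 counts of Dkk3, or 0.526 ± 0.0864 CPM (n = 3). That was far below control osteoblasts (log2 fold change −9.14, SE 0.09, FDR = 3.60e-20), and treated osteoblasts stood above ECs by 9.84 (SE 0.09, FDR = 2.97e-20).

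Of the antagonists that bind Wnt ligands, Sfrp2 and Wif1 were abundant in control osteoblasts. Sfrp2 (chromosome 3, 83766321 to 83774316, plus strand) carries a domain like the Wnt-binding part of Frizzled. It measured 173, 186, and 171 CPM in control osteoblasts (176 ± 8.59, SD, n = 3) and 11.0, 13.4, and 12.8 CPM after SB216763 (12.4 ± 1.24, n = 3). The highest treated library was far below the lowest control library, and the log2 fold change was −3.83 (SE 0.07, FDR = 1.60e-16). ECs had 3, 4, and 7 counts, or 0.118 ± 0.0469 CPM (n = 3). Treated osteoblasts were still above ECs by 6.69 on the log2 scale (SE 0.17, FDR = 3.40e-15), and control osteoblasts were further away (EC against control −10.52, SE 0.13, FDR = 2.88e-19). With ECs this near 0, any partial fall would have put treated osteoblasts between the 2 other groups. Exons of Sfrp2 overlap Gm26771, a gene on the opposite strand, and the strand setting of the counting is not given in the sources used here. Gm26771 had 170 counts over all libraries.

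Wif1 (chromosome 10, 121033960 to 121100650, plus strand) binds Wnt ligands through its own WIF domain. It measured 56.2, 55.9, and 51.8 CPM in control osteoblasts (54.6 ± 2.48, SD, n = 3) and 3.07, 3.08, and 3.05 CPM after SB216763 (3.06 ± 0.0131, n = 3). As for Sfrp2, no treated library reached a control library, and the log2 fold change was −4.16 (SE 0.08, FDR = 2.06e-16). ECs had 0, 1, and 2 counts of Wif1. With 3 counts in all, the pooled ratio of control osteoblasts to ECs was 2203, with a 95% counting interval of 754 to 10687 (FDR = 1.55e-18). The ratio of treated osteoblasts to ECs was 122, with an interval of 41.5 to 596 (FDR = 1.36e-12).

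Frzb (chromosome 2, 80411970 to 80447625, minus strand), a Wnt-binding antagonist first known from cartilage, showed the opposite distribution. It had 330, 236, and 305 counts in ECs, or 7.56, 7.19, and 7.07 CPM (7.27 ± 0.257, SD, n = 3), and 0 counts in each control library. With 3 counts standing in for 0, the EC level was 357-fold higher than in control osteoblasts (FDR = 1.08e-12). The 95% counting interval of that comparison began at 290. After SB216763 there were 6, 2, and 4 counts of Frzb, or 0.172, 0.0521, and 0.109 CPM (0.111 ± 0.0600, n = 3). Each treated library was above each control library (FDR = 4.89e-04). As a group the treated libraries were 5.35-fold higher with 3 counts standing in for 0. The 95% counting interval began at 3.72, under 4-fold. The call rests on 12 counts against 0. With a prior count of 2 the log2 fold change was 1.72, under the 4-fold cutoff. The ratio of ECs to treated osteoblasts was 66.7, with a 95% counting interval of 38.0 to 130, so that the treated cells stayed far below ECs (FDR = 5.09e-12). The 4 cartilage genes, Acan, Sox9, Col2a1, and Matn3, summed to 0.579 to 0.741 CPM in ECs. Their sums were 62.4 to 72.6 CPM in control osteoblasts, where Frzb had 0 counts, and 118 to 122 CPM in treated osteoblasts.

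The remaining Sfrp genes had low counts throughout. Sfrp1 (chromosome 8) had 10, 16, and 3 counts in control osteoblasts, 0, 6, and 14 in treated osteoblasts, and 2, 2, and 4 in ECs, and the control and treated groups overlapped. Sfrp4 (chromosome 13, 19623104 to 19632994) had at most 3 counts in any library. Sfrp5 (chromosome 19, 42197971 to 42202252) had 0 counts in each control library, 1, 1, and 5 in treated osteoblasts, and 2, 0, and 3 in ECs. No difference in these genes could be tested after the filter on low counts.

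In ECs against control osteoblasts, 2 antagonists were called higher (Frzb and Sost), where 13.5% of all genes were, and 3 were called lower (Dkk3, Sfrp2, and Wif1), where 9.87% of all genes were. The median log2 fold change of the 6 tested antagonists was −3.92, beside 0.01 over all genes. It falls between Dkk2 at 1.30 and Dkk3 at −9.14, with no antagonist near it, so it describes no common fall. In treated osteoblasts against ECs, 3 were called higher (Dkk3, Sfrp2, and Wif1), where 10.3% of all genes were, and 3 were called lower (Dkk2, Frzb, and Sost), where 15.0% were, and the median was 0.55 beside −0.02 over all genes. This median falls between Sost at −5.60 and Sfrp2 at 6.69, so it does not mean that levels were alike. Each pair of comparisons shares a group of libraries, so their fold changes are not independent of each other. Only Dkk3 passed the filter in all groups, so these counts against ECs are a description. For Sfrp2 and Wif1 the treated level lay between control osteoblasts and ECs, for Dkk3 and Dkk2 it lay outside the range of the 2 other groups, and for Frzb and Sost it lay at most 12 counts above control osteoblasts. With ECs near 0 for Sfrp2 and Wif1, any partial fall had to land between, so that position adds nothing to the fall itself.

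Levels of different genes were compared as CPM per kb of exon, since longer transcripts give more counts. In control osteoblasts the order was Dkk3 at 90.4 ± 2.52, Sfrp2 at 82.0 ± 3.99, Wif1 at 22.5 ± 1.02, and Dkk2 at 0.691 ± 0.0842 CPM per kb (SD, n = 3), and each lay above the next in every library. Dkk3 and Sfrp2 were close, with ranges of 88.5 to 93.3 and 79.2 to 86.5 CPM per kb. With the longest transcript as the length, Sfrp2 ranged from 85.2 to 93.0 CPM per kb and overlapped Dkk3. After SB216763 the order of the first 3 was kept, but the distances grew, with Dkk3 at 147 ± 7.53, Sfrp2 at 5.76 ± 0.576, and Wif1 at 1.26 ± 0.0054 CPM per kb. The other 7 were all at or under 0.041 CPM per kb on average, and their order could not be told from the spread between libraries. In ECs Frzb led at 2.25 ± 0.0794, followed by Dkk2 at 1.72 ± 0.0836, Sost at 0.708 ± 0.0668, Dkk3 at 0.157 ± 0.0257, and Sfrp2 at 0.0546 CPM per kb, with no overlap between these neighbors over the libraries. Sfrp5 overlapped Sfrp2, and Sfrp1, Wif1, and Sfrp4 overlapped Sfrp5.

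The make-up of the antagonist transcripts changed accordingly. Dkk3 made up 46.2% of the summed CPM per kb in control osteoblasts and 95.3% after SB216763, while Sfrp2 went from 41.9% to 3.75% and Wif1 from 11.5% to 0.822%. The sum itself was 196 ± 7.13 CPM per kb in control osteoblasts and 154 ± 7.44 after treatment (SD, n = 3), with ranges of 190 to 204 and 145 to 160 that did not overlap. Summed as CPM, the ranges were 522 to 558 in control and 480 to 528 in treated osteoblasts, and these overlapped. ECs held 4.94 ± 0.186 CPM per kb in all, of which Frzb made up 45.5%, Dkk2 34.8%, and Sost 14.3%. In bulk RNA, fewer cells expressing a gene and less RNA of that gene per cell cannot be told apart, and this holds for each of the levels above.

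**Figure D3:**
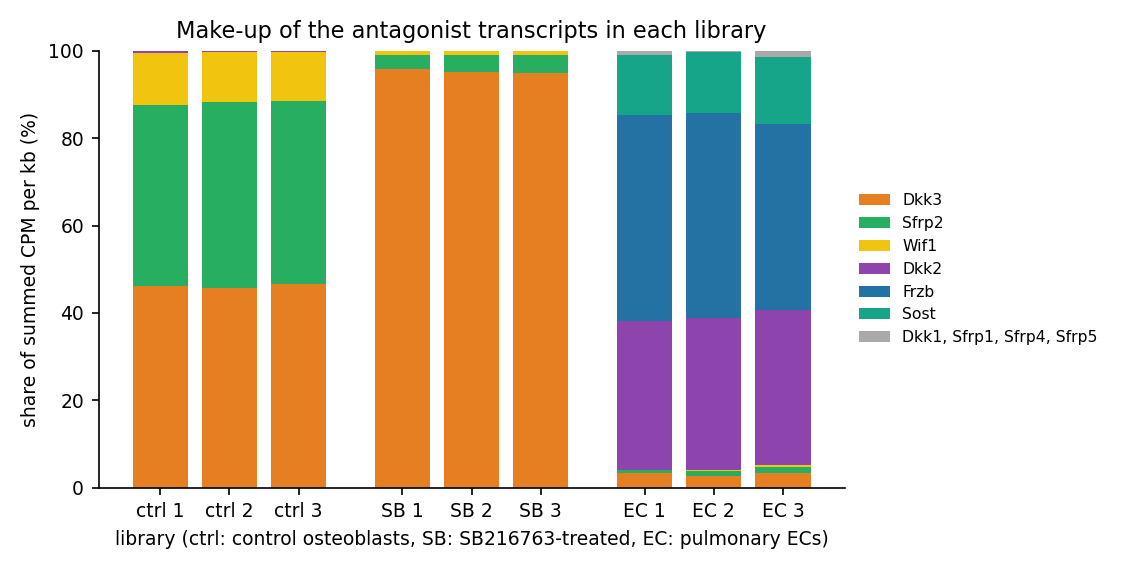
Share of each antagonist in the summed CPM per kb of exon of the 10 genes, 1 stacked bar per library from 0% to 100%. Dkk3 averages 46.2% in control osteoblasts and 95.3% after SB216763, and Frzb, Dkk2, and Sost fill most of each EC bar with averages of 45.5%, 34.8%, and 14.3%.

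Markers of cell types were summed in the same libraries. The 8 osteoblast markers (Col1a1, Col1a2, Sp7, Runx2, Alpl, Ibsp, Bglap, and Postn) summed to 45678 to 61191 CPM in control osteoblasts and to 8366 to 8621 CPM after SB216763, and 6 of the 8 were called lower, as Dkk2, Sfrp2, and Wif1 were. The 10 markers of fibroblasts and mural cells, 8 of them tested, summed to 8418 to 9128 CPM and to 1746 to 1822 CPM, but 3 were called lower (Col3a1, Acta2, and Cspg4), and at the FDR alone 4 were lower and 3 higher, with a median log2 fold change of 0.04. The 10 endothelial markers summed to 4.25 to 5.11 CPM in control osteoblasts, 5.32 to 5.82 CPM after treatment, and 7163 to 7349 CPM in ECs, and 0 of 10 were called higher after treatment, with 1 higher at the FDR alone. In ECs, osteoblast markers summed to 47.9 to 67.9 CPM, fibroblast and mural markers to 46.2 to 49.8 CPM, leukocyte markers to 56.2 to 58.4 CPM (mostly Cd68, with Ptprc at 0.0915 CPM and Cd3e at 0), adipocyte markers to 19.7 to 20.5 CPM (Adipoq at 0), and epithelial markers to 0.0927 to 0.152 CPM (Epcam and Sftpc at 0). In every EC library, 5 of the 8 osteoblast markers and 4 of the 10 fibroblast and mural markers were at 1 CPM or more. So were 2 of the 5 leukocyte markers and 2 of the 4 adipocyte markers, but 0 of the 5 epithelial ones. No adipocyte marker reached 1 CPM in all control libraries. Of the 4 adipocyte markers 2 were tested, and 2 were called higher for ECs against control osteoblasts (median log2 fold change 6.07). The value of Adipoq therefore does not describe that list as a group. The part of these cell type markers in the antagonist levels was not tested.

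The promoter windows of RefSeq (GRCm38.p6, 250 bases before to 50 bases after the start) held 7 of the 10 genes, namely Dkk1, Dkk2, Sfrp2, Sfrp5, Frzb, Wif1, and Sost. Bases upstream of the start are printed for the 3 genes that were called lower after SB216763, and for Sost, as the coreceptor antagonist called higher in ECs, from 5′ to 3′ on the strand of the gene with each CG pair in capitals. They run over chr3:83766071-83766320 on the plus strand for Sfrp2, chr3:132085042-132085291 on the plus strand for Dkk2, chr10:121033754-121033959 on the plus strand for Wif1, and chr11:101967016-101967265 on the minus strand for Sost.
Sfrp2: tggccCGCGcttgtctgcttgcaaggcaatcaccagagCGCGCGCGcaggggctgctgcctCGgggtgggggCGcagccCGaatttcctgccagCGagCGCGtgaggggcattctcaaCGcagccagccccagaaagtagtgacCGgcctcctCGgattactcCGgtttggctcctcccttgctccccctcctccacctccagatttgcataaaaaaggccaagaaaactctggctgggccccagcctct
Dkk2: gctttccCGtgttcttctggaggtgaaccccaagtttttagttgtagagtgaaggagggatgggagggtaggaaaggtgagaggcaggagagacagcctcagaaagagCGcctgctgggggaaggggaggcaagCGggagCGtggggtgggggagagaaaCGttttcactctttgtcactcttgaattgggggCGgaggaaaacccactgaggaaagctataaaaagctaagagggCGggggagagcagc
Wif1: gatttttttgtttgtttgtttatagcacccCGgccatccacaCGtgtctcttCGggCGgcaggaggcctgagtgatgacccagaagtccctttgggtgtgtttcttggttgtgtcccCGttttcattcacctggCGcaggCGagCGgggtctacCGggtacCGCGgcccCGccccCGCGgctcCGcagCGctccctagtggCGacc
Sost: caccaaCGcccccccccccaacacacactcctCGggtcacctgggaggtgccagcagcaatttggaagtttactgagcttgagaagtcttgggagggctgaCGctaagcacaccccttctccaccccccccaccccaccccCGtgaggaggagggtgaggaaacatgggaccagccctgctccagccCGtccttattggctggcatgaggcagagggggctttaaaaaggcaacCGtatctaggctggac
These stretches hold 16 CG pairs in 250 bases for Sfrp2, 7 in 250 for Dkk2, 17 in 206 for Wif1, and 6 in 250 for Sost. Over the whole window, counts of CG were 25 for Wif1, 22 for Sfrp2, 20 for Frzb, 15 for Sfrp5, 11 for Dkk2, 9 for Dkk1, and 7 for Sost, where the median of the 32851 windows in the table was 7, with quartiles of 3 and 20. The 3 genes called lower after SB216763 thus differed in CG content, with Dkk2 below the upper quartile and Sfrp2 and Wif1 above it. For Frzb the RefSeq start was at 80447396 and the GENCODE start, upstream of it on the minus strand, at 80447625. Most of the Frzb window therefore lies within the gene by GENCODE, and the same holds for Dkk1.

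Each window was also searched on both strands for CTTTGAA and CTTTGAT, the core letters that TCF/LEF factors bind. Of the 7 windows only that of Dkk1 held a match, 117 bases before the RefSeq start at 30549496 but after the GENCODE start at 30549665, and thus within the gene by GENCODE, and 8.65% of all windows held at least 1 of these motifs. It is shown in capitals within chr19:30549597-30549623 on the minus strand, for the 1 antagonist with 0 counts in every library.
Dkk1: cctcccaaagCTTTGAAatcccatccc
A match to these letters is a description and not a binding site, and for the other windows it says only that these letters are not there.

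The ligands, receptors, and targets of the pathway were counted from lists of Wnt genes. Over all genes tested, as given above, 5.84% were called lower and 3.81% higher after SB216763, and 32.0% were lower and 32.9% higher at the FDR alone. Of 19 Wnt ligands 9 were tested, and after SB216763 4 were called lower and 0 higher, while at the FDR alone 6 were lower and 3 higher, so that the share higher was near that of all genes (median log2 fold change −2.00). Those called lower were Wnt11 (1.15 to 0.00869 CPM, log2 fold change −6.57), Wnt4 (30.0 to 0.752 CPM, −5.31), Wnt10a (47.0 to 7.29 CPM, −2.69), and Wnt6 (45.1 to 11.1 CPM, −2.03). Wnt6 and Wnt10b lay at the 4-fold cutoff: Wnt6 lost its call with scaling by library size only (−1.82) and without control replicate 2 or SB216763 replicate 3, and Wnt10b gained one in several alternatives, so that 3 to 5 ligands were called lower. Of 18 receptors and coreceptors 15 were tested, with 1 called higher and 0 lower, close to the share of all genes, and 9 lower and 2 higher at the FDR alone (median −0.68). At a log2 cutoff of 1, 3 ligands were higher and 5 lower, and of the receptors and coreceptors 1 was higher and 4 lower. Scaling by library size only gave 5 receptors or coreceptors higher at the FDR alone, and without SB216763 replicate 1 Fzd9 was called lower (−2.24). The one called higher was Lrp5, a coreceptor that Dkk1, Dkk2, and sclerostin bind. Lrp5 went from 101 ± 4.81 to 477 ± 14.3 CPM (SD, n = 3; log2 fold change 2.24, SE 0.05, FDR = 1.60e-15) and was at 315 ± 7.04 CPM in ECs. Its relative Lrp6 had 203 CPM in control and 230 CPM in treated osteoblasts (log2 fold change 0.18, FDR = 0.0449), and Kremen1, a Dickkopf receptor, had 153 and 150 CPM (−0.03, FDR = 0.502). Neither passed the test.

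Among 12 other inhibitors of Wnt signaling outside the cell or at its membrane, 7 were tested, with 3 called lower and 0 higher, and 4 lower and 1 higher at the FDR alone (median −0.80). Those called lower were Rnf43, a ubiquitin ligase that removes Frizzled receptors (23.8 to 0.306 CPM, −6.26), Trabd2b, a protease that cleaves Wnt ligands (12.2 to 1.52 CPM, −3.00), and Apcdd1, a membrane inhibitor (1.97 to 0.455 CPM, −2.14). Apcdd1 lost its call with scaling by library size only (−1.93) and without SB216763 replicate 3 (−1.99), which left 2 inhibitors. Without the filter on low counts Notum was called lower as well (−3.59), which gave 4. The summed level of the 12 genes went the other way, with 734 to 773 CPM in control osteoblasts and 1798 to 1977 CPM after SB216763. Only 1 of the 7 tested was higher at the FDR, so the sum does not describe the list as a group. The 1 inhibitor higher at the FDR also passed a log2 cutoff of 1. Of 16 feedback targets of β-catenin, which share Notum, Rnf43, Znrf3, and Apcdd1 with the inhibitors, 13 were tested, with 7 called lower and 0 higher, and 10 lower and 1 higher at the FDR alone (median −2.14). The 7 were Nkd2 (1.62 to 0.00956 CPM, −7.06), Rnf43, Tcf7 (75.9 to 1.79 CPM, −5.41), Axin2 (26.0 to 0.908 CPM, −4.83), Tnfrsf19 (796 to 29.7 CPM, −4.74), Myc (224 to 16.9 CPM, −3.73), and Apcdd1, without which 6 were called with scaling by library size only. Without SB216763 replicate 3, Bambi took the place of Apcdd1 (−2.05). Leaving out the filter on low counts added Notum (−3.59) and Nkd1 (−5.71), which gave 9 targets called lower. The values of Wnt11 and Nkd2 rest on 1 count each in the treated libraries.

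**Figure D4:**
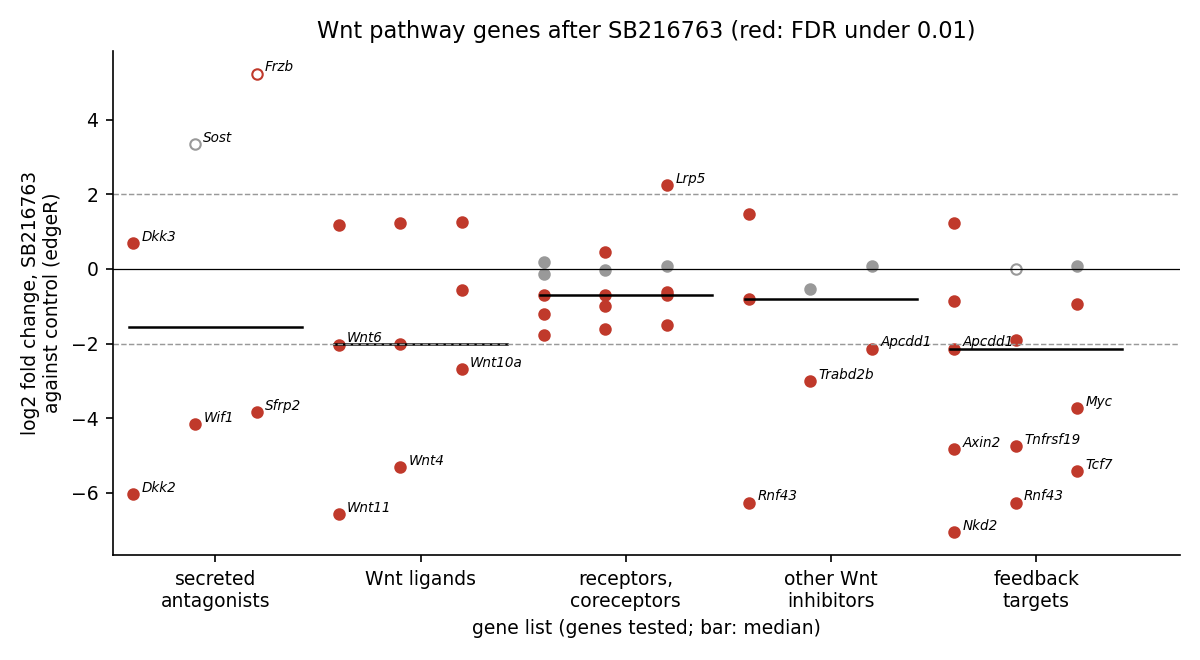
Log2 fold change between SB216763-treated and control osteoblasts for the tested genes of 5 Wnt lists, with a bar at each median, red for FDR under 0.01, open points where 1 of the 2 groups or both had 0 counts, and dashed lines at the 4-fold cutoff. The medians are −1.57 for the secreted antagonists, −2.00 for the ligands, −0.68 for receptors and coreceptors, −0.80 for other inhibitors, and −2.14 for feedback targets.

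The genes most like Dkk3, the antagonist with the most counts in control osteoblasts, were Arhgef10l, Ebf1, and Gprc5c, with Pearson correlations of log2 CPM between 0.9997 and 0.99997 over the 9 libraries. These correlations follow the difference between the 3 groups, and 542 genes exceeded 0.99.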

How the data were processed

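RNA-Seq libraries of control osteoblasts, SB216763-treated osteoblasts, and pulmonary ECs were analyzed, 3 of each. Per the submitters' processing notes the authors used STAR 2.5.3a and GRCm38, and they deposited unnormalized read counts per gene for 50686 genes. The annotation and strand setting are not given in the sources used here. The test was edgeR (version 4.0.16, under R 4.3.3), after filterByExpr had removed genes with low counts by group and TMM had scaled the libraries. A single quasi-likelihood model took in all 9 libraries, and p-values were adjusted by Benjamini-Hochberg over 15531 genes. It shares 1 estimate of the spread, although the spread was uneven. Between 2 libraries of a group, the chi-square of their counts per gene was 27.4 to 110 for control osteoblasts. It was 3.20 to 27.3 for treated osteoblasts and 2.93 to 4.73 for ECs, and it grows with depth. Log2 fold changes used a prior count of 0.125. The edgeR fit and the 4-fold call were tested on simulated counts, for SB216763 against control only. Changes were placed in genes expressed in control osteoblasts. Comparisons with ECs, groups at 0 counts, counting intervals, and levels per kb were not covered. Counting intervals are exact at 95%, and with counts at 0 a limit of 3 counts over a group was used. Folds against that limit leave out the counting error of the other group. Gene positions and exon lengths came from GENCODE M21 on GRCm38, in which 50376 of the identifiers were found. All 10 antagonists were named. Of the other lists, genes past the 4-fold cutoff after SB216763 were named, at most 8 per list in order of size. Lrp6, Kremen1, Wnt10b, Fzd9, Bambi, Notum, and Nkd1 were added after their values were seen, as was the naming of single marker genes. The antagonists and lists were chosen with earlier results of these data known. Alternatives were edgeR with the size factors of DESeq2, library size only, DESeq2 1.42.0, limma 3.58.1 (voom), no filter, the 2 compared groups only, the replicate number as a block, a log2 cutoff of 1, a prior count of 2, transcript length, and leaving out each library.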

Additional observations from a re-analysis of the deposited data

How the results depend on the processing

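The counts of called antagonists in the 3 comparisons were recomputed under 18 alternatives, including the omission of each library. With 1 exception they stayed at 1 higher and 3 lower after SB216763, 3 lower in ECs against control osteoblasts, and 3 higher and 3 lower in treated osteoblasts against ECs. In ECs against control osteoblasts 2 were higher, or 3 at a log2 cutoff of 1, when Dkk2 was added. The exception was a prior count of 2, applied to these counts after the data were seen: Frzb after SB216763 then had a log2 fold change of 1.72 in place of 5.23, and the number called higher was 0, since its size against 0 counts depends on that choice. It was 4.82 to 5.59 when 1 library was left out. The other 17 of the 18 fold changes kept their direction, and none of them gained or lost the call that needs both the 4-fold and the FDR cutoff. Fold changes against groups at 0 counts were the least stable in size, down to 7.26 for Frzb and 4.99 for Sost in ECs against control osteoblasts. Sost after SB216763 crossed each cutoff singly but never passed both: its log2 fold change ranged from 0.65 to 3.44 (FDR up to 0.0888), and limma-voom gave FDR = 0.00815 at a log2 fold change of 1.93. Dkk3 after SB216763 ranged from 0.67 to 0.90, the highest with scaling by library size only. That scaling moved the median of all genes after SB216763 from 0.01 to 0.22, and that of ECs against control osteoblasts to 0.13, so Dkk3 stood above the median of all genes under either scaling. Over all genes, library size only gave 718 higher and 790 lower after SB216763, against 592 and 907, and a log2 cutoff of 1 gave 1726 and 2015. For ECs against control osteoblasts that cutoff gave 3295 and 2716, against 2102 and 1533, and for treated osteoblasts against ECs it gave 2978 and 3608, against 1604 and 2329. Replicate numbers were shared across groups, but deviations from the group means correlated at 0.0689 between control and treated libraries, −1.76e-04 between control osteoblasts and ECs, and −0.0173 between treated osteoblasts and ECs, so the numbers were not taken as pairing. With the replicate number as a block, the antagonists called were 1 higher and 3 lower, 2 higher and 3 lower, and 3 higher and 3 lower in the 3 comparisons, and the block changed no call of an antagonist. Order by mean level was the same with the longest transcript as the length, with 3 of 24 levels moved by more than their SD. The ranges of Dkk3 and Sfrp2 in control osteoblasts then overlapped. Depth limits Dkk1, Sfrp4, and Sfrp5 most, with at most 5 counts in any library.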

Other observations

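Sfrp1, Sfrp4, and Sfrp5 belong to no comparison above because of the filter on low counts. In a fit of all genes with any count, Sfrp1 had a log2 fold change of −0.10 after SB216763 (FDR = 0.99) and of −1.53 in ECs against control osteoblasts (FDR = 0.0249), and neither was under 0.01. The 3 treated libraries differed widely for Sfrp1, with 0, 6, and 14 counts. Sfrp5 in treated osteoblasts was at least 3.12-fold higher than in control osteoblasts, where it had 0 counts, with FDR = 0.0149, and 5 of the 7 counts came from 1 library. In ECs Sfrp5 was at least 2.05-fold higher than in control osteoblasts, on 5 counts against 0, with FDR = 0.0448. Neither passed the FDR cutoff of 0.01.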
